A study of Rattus norvegicus with 42 samples.

Results

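Lungs of rats that breathed crystalline silica while eating a regular diet were compared with lungs of air-breathing rats on the same diet, 3 months after the exposure ended. The set was chosen by the labels alone (diet, exposure and time) and holds 9 of the 42 rats of the series, 5 exposed to silica and 4 to air. All were male Fischer 344 rats (F344/DuCrl) bought at 3 months of age. The silica rats spent 6 hours of each of 5 days in whole-body chambers at 15 mg silica per cubic metre, and the controls breathed air. The regular diet drew 18% of its energy from fat, began 2 weeks before the exposure and went on until sampling. RNA of a piece of whole lung was sequenced after ribosomal RNA removal, and the series asks how a high-fat diet bears on lung injury by silica. Here the question is what silica changed when the diet was regular. Values per rat are given in the order silica rats 43, 44, 45, 46 and 47, then air rats 38, 40, 41 and 42.

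Inhaled silica crystals are taken up by alveolar macrophages, whose lysosomes they damage. Injured macrophages and the epithelium release interleukin 1 and chemokines that draw neutrophils and monocytes, and lasting exposure leads to silicosis, a nodular fibrosis. Alveolar type 2 cells make surfactant and are the stem cells of the alveolus, while flat type 1 cells and capillary endothelium form the surface for gas exchange.

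In silica rats, chemokine, complement, macrophage lysosome and surfactant genes took a larger share of the lung's counted RNA. Type 1 cell, endothelial and collagen genes took a smaller share. Of 15234 genes with enough counts to test, 16.8% were called, meaning that the Benjamini-Hochberg adjusted p of edgeR's quasi-likelihood test was below 0.05. With silica 10.2% of tested genes were higher and 6.6% lower, and these shares belong beside every count of list members below. The lists were chosen with earlier results of these data known, so a count above these shares is a description and not a test. The rises were the larger changes, with a median log2 fold change of 0.48 among called genes against a median fall of 0.31. Among genes that changed at least 2-fold, 214 were higher and 30 lower. The lower set was the less stable: it numbered 1005, but 618 without air rat 41 and 637 without silica rat 46. All 5 silica rats lay above all 4 air rats for 8.77% of tested genes and below them for 5.97%. The median log2 fold change of all tested genes was -0.01.

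**Figure D1:**
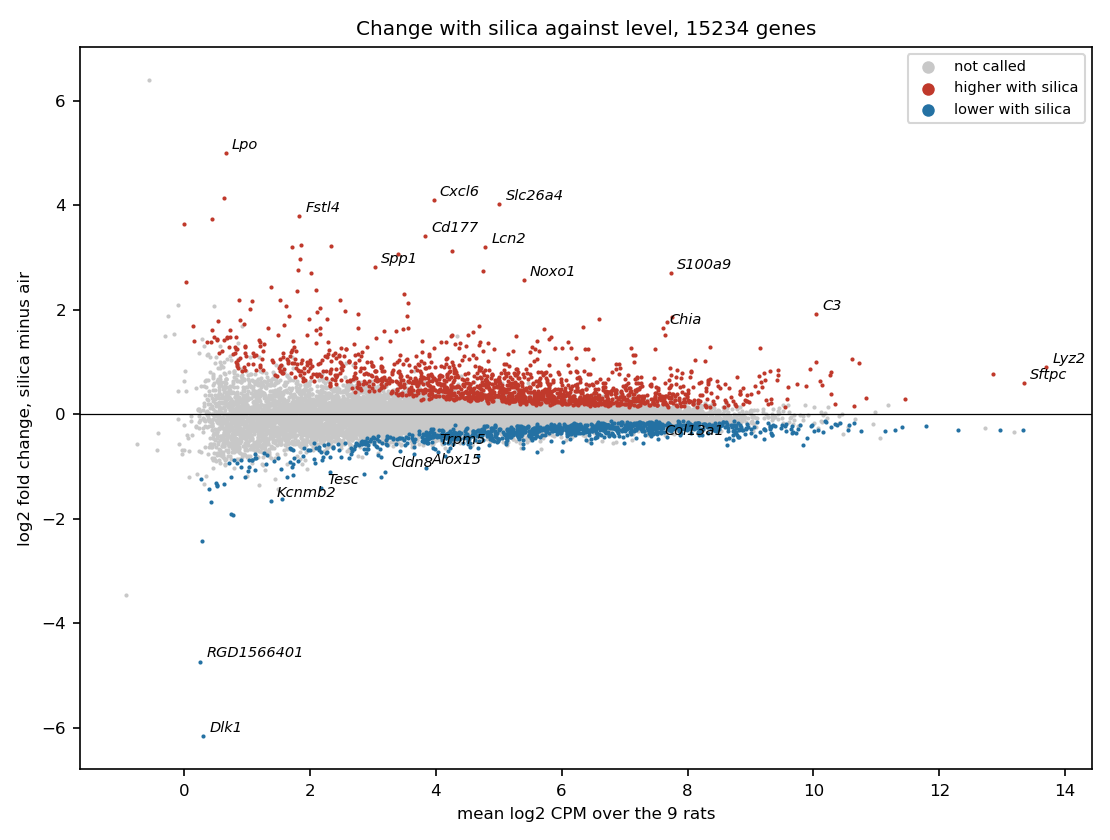
Each point is 1 of 15234 tested genes. The horizontal axis is its mean level over the 9 rats (log2 CPM) and the vertical axis its log2 fold change, silica minus air, with called genes in red (higher) and blue (lower). The rises reach further from 0 than the falls, apart from Dlk1 and RGD1566401 at the lower left.

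Lung identity was plain in every library: the surfactant protein gene Sftpc stood at 11340, 12970, 12820, 14350 and 11080 CPM in silica rats, against 8281, 9225, 7406 and 8135 CPM in air rats. CPM is a gene's count scaled to a library of 1000000 counts. Libraries held 6156415 to 8259635 counts in silica rats and 5143424 to 6441238 in air rats (exact permutation test, two-sided, p = 0.048, adjusted over 3 library measures 0.14, n = 5 and 4; the smallest p this test allows is 0.016). Ribosomal RNA took 0.635% to 1.43% of counts in silica rats and 0.988% to 1.66% in air rats. On the first principal component, which carried 39.1% of the variance, silica rats lay at 4.18 to 36.8 and air rats at -32.0 to -13.9. Silica rat 46 lay farthest out, and it was also the highest in many of the macrophage and type 2 cell genes below. Markers of heart muscle, which can enter a lung sample with the dissection, summed to 12.7 to 368 CPM in silica rats and 81.9 to 300 CPM in air rats, and 0 of 11 tested members were called. Since the samples are bulk tissue, fewer cells of a type and less RNA per cell cannot be told apart in anything that follows. CPM are shares of a library, so a gene's share can also fall because other genes take more. The part of this in the values below was not tested.

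Neutrophil-attracting chemokines were higher. Cxcl6, a ligand that draws neutrophils through the receptors Cxcr1 and Cxcr2, stood at 55.7, 55.8, 50.5, 58.4 and 48.6 CPM in silica rats, against 2.32, 3.27, 2.40 and 4.43 CPM in air rats. Cxcl1, another ligand of that group, stood at 90.9, 85.0, 63.7, 66.05 and 75.5 CPM with silica and 19.9, 33.8, 23.9 and 37.0 CPM in air, and its relative Cxcl2 at 7.95, 7.84, 6.06, 6.52 and 7.04 CPM with silica and 1.93, 3.42, 2.06 and 1.36 CPM in air. For all 3 genes the lowest silica rat lay above the highest air rat. The log2 fold changes were 4.09 ± 0.24 (SE) for Cxcl6, 1.66 ± 0.21 for Cxcl2 and 1.40 ± 0.16 for Cxcl1. Of 9 tested ligands and receptors of this axis, 7 were higher and 0 lower, with a median log2 fold change of 0.74. Cxcl3 (log2 fold change 0.86) and the receptor Cxcr2 (0.74) were among them. Cxcl1, Cxcl2 and Cxcl3 are similar copies, so reads may have been split between them.

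The start sites of 4 of the induced chemokine genes are shown because each is preceded, within 150 bases, by a match to the kappaB consensus, the sequence that NF-kappaB proteins bind. Each line gives the 150 bases before the start site, 5′ to 3′ on the gene's strand, from RefSeq on GRCr8. Capitals mark the match.
Cxcl1 (chr14:17479322-17479471, minus strand): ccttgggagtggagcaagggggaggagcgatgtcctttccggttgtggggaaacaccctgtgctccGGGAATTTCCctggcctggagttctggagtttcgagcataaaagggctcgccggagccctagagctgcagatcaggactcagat
Cxcl2 (chr14:17467256-17467405, minus strand): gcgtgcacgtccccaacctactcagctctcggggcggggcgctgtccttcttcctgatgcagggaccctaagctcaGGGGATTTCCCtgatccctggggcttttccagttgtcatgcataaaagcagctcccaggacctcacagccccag
Cxcl6 (chr14:17596418-17596567, minus strand): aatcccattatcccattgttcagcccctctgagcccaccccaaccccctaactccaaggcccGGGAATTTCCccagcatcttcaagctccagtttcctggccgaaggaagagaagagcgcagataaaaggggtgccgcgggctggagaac
Ccl7 (chr10:67513945-67514094, plus strand): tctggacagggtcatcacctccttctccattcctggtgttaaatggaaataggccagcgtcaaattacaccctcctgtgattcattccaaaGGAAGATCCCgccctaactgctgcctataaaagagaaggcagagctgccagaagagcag
In Cxcl1 the match begins 84 bases before the start site, in Cxcl6 88 bases and in Cxcl2 74 bases, where 2 matches overlap. In Ccl7 it lies on the opposite strand, from 59 bases before the start site. Searched on both strands, the consensus occurs in 2.55% of such 150-base stretches in the table of 33469 promoters. Of 14 tested chemokine ligands called higher, 10 have an entry in that table. Over the full window of 300 bases, 5 of these 10 hold a match, against 2 of 8 not called and 5.02% of all promoters. Cxcl1, Cxcl2 and Cxcl6 are related genes that lie near each other on chromosome 14, so their matches may not be independent. Cxcl10 was not called and holds a match, while Cxcl17 and Cx3cl1 were called and hold none. A match is a description of the letters and not a measured binding site.

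Genes of neutrophils themselves were also higher. Of 10 tested neutrophil markers, 8 were higher and 0 lower, with a median log2 fold change of 1.14, and their summed level was 622 to 916 CPM in silica rats and 153 to 206 CPM in air rats. S100a9, a calcium-binding protein that fills the cytosol of neutrophils, stood at 505, 609.5, 567, 417 and 367 CPM with silica and 74.0, 67.1, 94.1 and 69.2 CPM in air. This 1 gene made up a large part of the summed level. Cd177, a surface protein of neutrophils in blood, had a log2 fold change of 3.40 ± 0.17, and S100a8, the partner of S100a9, 1.48 ± 0.22. The granule enzyme genes Mpo and Elane, which are transcribed in bone marrow precursors, had 5 and 4 counts over all silica rats and 0 and 2 over all air rats. Lcn2, which binds bacterial siderophores and is made by neutrophils and by epithelium, had a log2 fold change of 3.20 ± 0.18. It is counted among the 10 tested neutrophil markers.

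Among antimicrobial and acute-phase genes 11 of 19 tested members were higher and 0 lower, with a median log2 fold change of 0.90. The largest value of this list, 3.20, is that of Lcn2, which is also in the neutrophil list. Pigr, the epithelial receptor that carries antibodies into airway fluid, stood at 2367, 2302, 2283, 2476 and 2018 CPM with silica and 1058, 1090, 1069 and 1415 CPM in air, so the groups were far apart at a high level. Hp, which encodes the haemoglobin-binding protein haptoglobin, had a log2 fold change of 1.26 ± 0.12. Chi3l1, a chitinase-like protein of macrophages and epithelium, had 1.77 ± 0.08. The part that neutrophil RNA plays in this list was not tested.

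Chemokines that draw monocytes and lymphocytes were higher in 10 and lower in 0 of 20 tested genes of the CC and other CXC groups (median log2 fold change 0.56). Ccl7, a monocyte-attracting neighbour of Ccl2, stood at 7.48, 7.70, 6.68, 12.04 and 7.46 CPM with silica and 0.580, 1.56, 0.687 and 1.19 CPM in air, with no overlap. Ccl2 itself had a log2 fold change of 3.06 ± 0.24. Ccl3, a macrophage chemokine, had 1.26 ± 0.17, the endothelial and epithelial Cx3cl1 0.82 ± 0.12, and Ccl6 0.50 ± 0.07. The receptors were little changed: of 13 tested, Cxcr3, which guides T cells, was higher (0.82 ± 0.20), as was Cx3cr1, and Ackr4, which clears chemokines, was lower (-0.47 ± 0.12). The calls of Cx3cr1 and Ackr4 did not survive leaving out air rat 41 (adjusted p 0.058 for Cx3cr1 and 0.062 for Ackr4), and that of Cx3cr1 was also lost without silica rat 46 or 47 or air rat 40 or 42.

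Interleukin 1 genes changed on the side of both agonist and brake. Il1b, the cytokine that the inflammasome activates, had 38.5, 35.9, 37.1, 32.8 and 41.3 CPM in silica rats, against 25.3, 20.9, 20.8 and 20.8 CPM in air rats (log2 fold change 0.77 ± 0.15). The decoy receptor Il1r2 had 9.20, 5.36, 8.91, 8.86 and 6.63 CPM with silica and 1.74, 1.56, 3.95 and 0.682 CPM in air, and the receptor antagonist Il1rn 26.0, 28.1, 32.8, 54.5 and 31.6 CPM with silica and 17.2, 16.2, 14.1 and 14.8 CPM in air. For both brakes the groups did not overlap, and the log2 fold changes were 1.96 ± 0.31 for Il1r2 and 1.14 ± 0.20 for Il1rn. The inflammasome sensor Nlrp3 was higher (0.64 ± 0.13), while Il33, an alarmin stored in nuclei, was lower (-0.33 ± 0.07). In all, 8 of 17 tested genes of this family were higher and 1 lower (2 without silica rat 43). The classical macrophage cytokines were barely seen: Tnf had 3 counts over the 5 silica rats and 0 over the 4 air rats, Il6 had 15 and 4, and Nos2, which makes nitric oxide, 28 and 16, all too few to test.

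In the NF-kappaB pathway 6 of 18 tested genes were higher and 0 lower. Zc3h12a, an RNase that degrades cytokine messages, had a log2 fold change of 1.08 ± 0.11, Tnfaip2 had 1.01 ± 0.14, and the nuclear cofactors Bcl3 and Nfkbiz 0.83 ± 0.13 and 0.49 ± 0.10. The cytokine genes outside the interleukin 1 family were mostly at low counts, and of 8 tested, Tnfsf13, a survival factor for plasma cells, and Csf1, the macrophage growth factor, were higher (0.83 ± 0.10 and 0.45 ± 0.11). Of 20 type I interferon genes 1 was called, the RNase gene Isg20 (0.46 ± 0.13), and the median was -0.03. A second, lower, was called without silica rat 44, silica rat 47 or air rat 38. Isg15, an interferon-induced ubiquitin-like protein, had an uncalled log2 fold change of -0.33 ± 0.16.

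**Figure D2:**
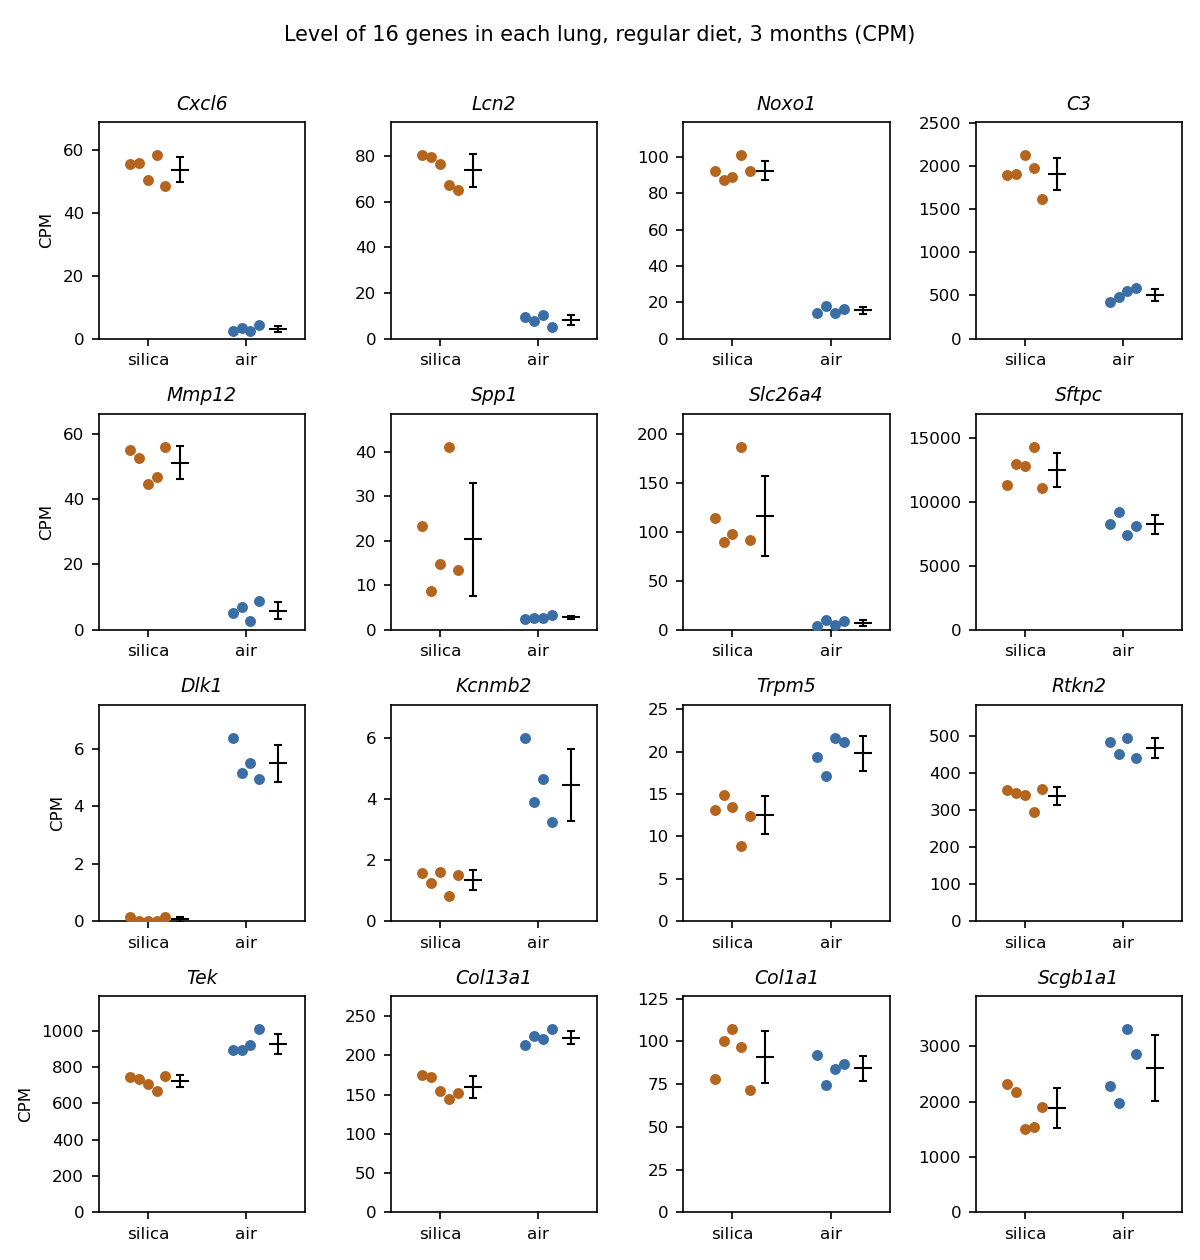
Level in CPM of 16 genes in each of the 5 silica rats (left) and 4 air rats (right), with the mean and SD of each group as a black bar. The groups are apart for 14 of the genes and overlap for Col1a1 and Scgb1a1.

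Complement, the serum protein cascade that tags particles for uptake, was higher in 12 and lower in 0 of 22 tested genes (median log2 fold change 0.52). Its central component C3 was also one of the more abundant induced genes, at 1895, 1914, 2129, 1985 and 1626 CPM in silica rats and 425, 479, 549 and 581 CPM in air rats. Cfb, the enzyme of the alternative pathway, had a log2 fold change of 1.00 ± 0.09. The 3 chains of C1q, which macrophages make, moved by similar amounts: C1qa 0.59 ± 0.08, C1qb 0.74 ± 0.09 and C1qc 0.62 ± 0.07. Cfi, which cleaves C3b, varied most among silica rats, at 38.4, 21.7, 38.4, 85.0 and 27.8 CPM against 9.85, 16.2, 10.99 and 18.6 CPM in air. Rat 46 held the highest level by a wide margin.

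Antigen presentation by class II molecules, which show peptides to helper T cells, was higher in 8 and lower in 0 of 10 tested genes (median 0.66). Cd74, the chaperone of class II molecules, stood at 1240, 1501, 1704, 1716 and 1618 CPM with silica and 946, 997, 843 and 893 CPM in air. Ifi30, a lysosomal reductase for antigens, had a log2 fold change of 0.82 ± 0.08, and RT1-Ba and RT1-Da, which are class II chains of the rat and belong to a family of similar copies, 0.62 ± 0.06 and 0.71 ± 0.07. Of 12 dendritic cell markers 5 were higher and 0 lower, among them the dead-cell receptor Clec9a (0.99 ± 0.17) and Cd83 (0.85 ± 0.11), a marker of mature dendritic cells. Few lymphocyte markers were called. Of 17 tested T and NK cell markers 0 were called: Cd3e, a chain of the T cell receptor complex, had an uncalled 0.35 ± 0.19, and the median was 0.02. Of 14 B and plasma cell markers 3 were higher and 1 lower, but 1 was higher without silica rat 46.

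Genes of lipid-laden and matrix-degrading macrophages were higher. Of 20 tested lipid-handling genes 15 were higher and 0 lower (median log2 fold change 0.54). Lgals3, the glycan-binding lectin galectin 3, had 1.29 ± 0.11, Fabp5, a fatty acid carrier, 1.26 ± 0.13, and Gpnmb, a lysosomal stress glycoprotein, 1.27 ± 0.14. Nceh1, which hydrolyses stored cholesterol esters, had 0.80 ± 0.08. The elastase gene Mmp12 stood at 55.0, 52.7, 44.7, 46.8 and 56.1 CPM with silica and 5.02, 7.004, 2.58 and 8.69 CPM in air. Its promoter is shown with that of Gpnmb because both hold a match to TGANTCA, the site of AP-1 factors, at the same distance from the start site.
Mmp12 (chr8:12866502-12866651, plus strand): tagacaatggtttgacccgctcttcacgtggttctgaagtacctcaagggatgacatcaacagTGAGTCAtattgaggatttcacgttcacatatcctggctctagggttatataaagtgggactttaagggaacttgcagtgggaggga
Gpnmb (chr4:79340978-79341127, plus strand): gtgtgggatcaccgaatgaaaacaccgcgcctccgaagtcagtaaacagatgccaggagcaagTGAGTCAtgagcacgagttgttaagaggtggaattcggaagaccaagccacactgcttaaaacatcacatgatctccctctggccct
Capitals mark the match, which runs from 87 to 81 bases before each start site (RefSeq, GRCr8, 5′ to 3′). It reads the same on both strands in its fixed letters and occurs in 3.69% of the 150-base stretches of the table. These 2 promoters were picked after the changes were known. The promoter of Srxn1 was also looked at and holds a match from 62 to 56 bases before its start site. The shared distance of Mmp12 and Gpnmb is thus part of the choice. How many other raised genes hold a match was not counted.

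Alveolar macrophage markers were higher in 6 and lower in 1 of 11 tested genes, with a summed level of 1280 to 1820 CPM in silica rats and 833 to 981 CPM in air rats. Without air rat 41, 4 were higher and 0 lower. Itgax, the integrin chain CD11c, had a log2 fold change of 1.27 ± 0.11 and the lysosomal glycoprotein Cd68 1.21 ± 0.13. Marco, a scavenger receptor that binds silica in mouse macrophages, had only 8 counts over the silica rats and 1 over the air rats, whereas Msr1, another scavenger receptor, stood at 126, 118.9, 132, 142 and 111.8 CPM with silica and 63.5, 70.0, 46.7 and 62.9 CPM in air. Among interstitial macrophage and monocyte markers 6 of 12 were higher and 1, Cd163, lower, with Itgam, the integrin chain CD11b, at 0.77 ± 0.14.

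Genes of alternative activation split. Retnla, a secreted protein of alternatively activated macrophages in rodents, stood at 68.4, 41.4, 45.2, 136 and 44.6 CPM with silica and 7.53, 9.03, 7.73 and 15.2 CPM in air. Chia, the acidic chitinase, stood at 220.0, 238, 421, 594 and 222 CPM with silica and 102, 113.9, 108 and 108.9 CPM in air, and Spp1, which encodes osteopontin, at 23.2, 8.80, 14.8, 41.1 and 13.4 CPM with silica and 2.51, 2.65, 2.58 and 3.41 CPM in air. In all 3 genes the groups were apart, and silica rat 46 was the highest. Arg1, which breaks down arginine, had a log2 fold change of 1.21 ± 0.13. Cd163, the haemoglobin scavenger receptor, was lower (-0.65 ± 0.18), but its call was lost without air rat 41 (adjusted p 0.081). In all, 6 of 13 were higher and 1 lower, and 4 were higher without air rat 41.

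Lysosomes and the pump that acidifies them rose along a broad front. Of 25 tested proteases and hydrolases 18 were higher and 1 lower (median 0.43), and the summed level was 8430 to 11100 CPM in silica rats and 5820 to 7040 CPM in air rats. Ctsk, a collagen-degrading cathepsin, had 41.8, 28.6, 38.9, 53.8 and 38.5 CPM with silica and 13.5, 17.7, 12.2 and 18.1 CPM in air. Ctsz had a log2 fold change of 0.96 ± 0.09, Ctsb 0.58 ± 0.07, and Psap, the precursor of the saposins that help degrade glycolipids, 0.63 ± 0.07. Ctsl, named because it was the 1 member lower, had -0.29 ± 0.05. Of 17 tested proton pump genes 10 were higher and 0 lower, and 5 were higher without air rat 41. The subunit Atp6v0d2, known from osteoclasts and macrophages, stood at 21.4, 20.8, 26.9, 28.3 and 21.8 CPM with silica and 4.44, 8.87, 1.72 and 6.31 CPM in air. Its log2 fold change was 2.13 ± 0.24, and the next largest of the pump was 0.77 ± 0.11 for Atp6v1b2.

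Iron and redox genes changed in part. Of 17 iron genes 9 were higher and 0 lower (5 without air rat 41 or without silica rat 46). The importer Slc11a2, which moves iron out of endosomes, stood at 53.6, 68.2, 76.8, 64.9 and 74.3 CPM with silica and 35.7, 40.5, 37.8 and 41.9 CPM in air, and the transferrin receptor Tfrc had a log2 fold change of 0.67 ± 0.09, transferrin (Tf) 1.14 ± 0.17. Of 25 oxidative stress genes 7 were higher and 0 lower (4 without air rat 41 or 42 or silica rat 46). The mitochondrial dismutase Sod2 stood at 299.6, 289.7, 319, 405 and 288 CPM with silica and 107, 118.8, 104 and 116 CPM in air. Haem oxygenase (Hmox1, 1.20 ± 0.18) and the cystine importer Slc7a11 (1.81 ± 0.30) were also higher.

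**Figure D3:**
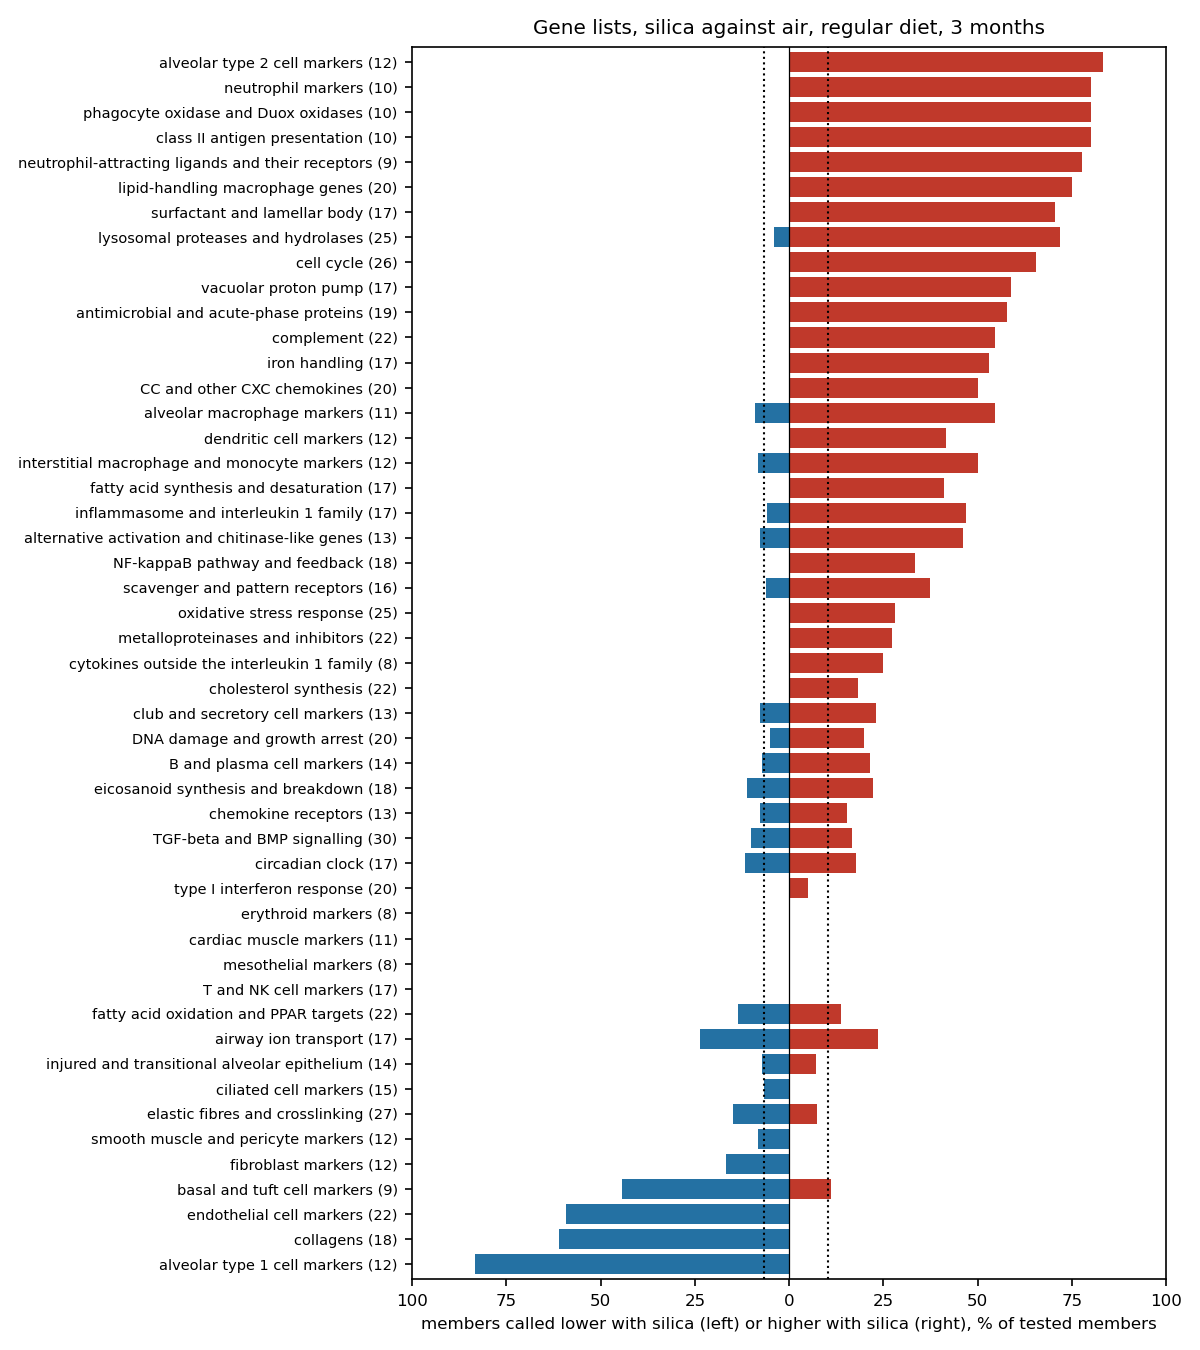
Share of the tested members of each gene list that were called higher (red, right) or lower (blue, left) with silica, for lists with at least 7 tested members (number in brackets). Dotted lines mark the shares over all tested genes, 10.2% higher and 6.6% lower. Type 2 cell, neutrophil and oxidase lists stand at the top and type 1 cell, collagen and endothelial lists at the bottom.

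Genes that make reactive oxygen were higher too. Of 10 tested genes of the phagocyte oxidase and Duox group 8 were higher and 0 lower (1 without silica rat 44 or air rat 42), including the phagocyte subunits Ncf4 (0.85 ± 0.12), Cyba (0.81 ± 0.12) and Cybb (0.49 ± 0.09). Noxo1, the organiser subunit that keeps the epithelial oxidase NOX1 active, was chosen after its values were seen. It stood at 92.3, 87.6, 89.2, 101 and 92.2 CPM in silica rats and 13.9, 17.9, 13.9 and 16.2 CPM in air rats, with a narrow spread in both groups (log2 fold change 2.57 ± 0.12, adjusted p 5.1e-12). Its catalytic partner Nox1 had 14 counts over the 5 silica rats and 0 over the 4 air rats, and the activator Noxa1 34 and 22, all too few to test. Lpo, the peroxidase of airway fluid, had 165 counts over silica rats and 3 over air rats, a ratio of CPM of 36.6 with a 95% counting interval of 12.3 to 179.

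Among genes of ion transport, Slc26a4, the anion exchanger pendrin, stood at 114.9, 89.5, 97.6, 188 and 91.8 CPM with silica and 4.06, 9.80, 4.64 and 9.37 CPM in air. Cftr, the chloride channel, was also higher, at 41.6, 45.8, 39.6, 51.8 and 31.5 CPM with silica and 26.6, 26.1, 19.2 and 24.7 CPM in air. Kcnmb2, a regulatory subunit of a potassium channel, went the other way, at 1.56, 1.24, 1.61, 0.836 and 1.52 CPM with silica and 5.99, 3.89, 4.64 and 3.24 CPM in air. Of 17 tested ion transport genes 4 were higher and 4 lower, of which 2 were lower without air rat 41. The water channel Aqp5 of type 1 cells was among the lower (-0.35 ± 0.08).

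Type 2 cell genes were higher. Of 12 markers 10 were higher and 0 lower (median log2 fold change 0.58), with a summed level of 27000 to 36200 CPM in silica rats and 18900 to 22200 CPM in air rats. Sftpa1, a collectin of surfactant that binds microbes, stood at 9427, 9194, 9112, 11270 and 8060 CPM with silica and 5147, 5824, 5160 and 5888 CPM in air. Lamp3, a membrane protein of the lamellar bodies that store surfactant, had 808, 805, 700.4, 893 and 621 CPM with silica and 430.3, 478, 387 and 467 CPM in air. Lpcat1, which makes the main surfactant lipid, had a log2 fold change of 0.73 ± 0.10, the protease Napsa 0.65 ± 0.10, and the epithelial mucin Muc1 0.99 ± 0.11. Sftpb, which encodes the protein that spreads the lipid film, was not called (0.18 ± 0.09, adjusted p 0.15). Of 17 surfactant and lamellar body genes, some of them also type 2 markers, 12 were higher and 0 lower.

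Genes of lipid supply were higher in part. The fatty acid synthesis list shares a member with the surfactant list, since the largest log2 fold change of both is the same, 1.06. Fasn, fatty acid synthase, stood at 1777, 1875, 2358, 3274 and 1798 CPM with silica and 1043, 1123, 974 and 1119 CPM in air, and Dgat2, which makes triglyceride, had a log2 fold change of 0.79 ± 0.10. Of 17 fatty acid synthesis genes 7 were higher and 0 lower (4 without air rat 41). Cholesterol synthesis changed less, with 4 of 22 higher and 0 lower, and the count lay between 1 (without silica rat 46) and 7 (without silica rat 45); it was 2 without air rat 38, air rat 41 or silica rat 47. Mvd, an early enzyme of that route, was the member with the smallest p (0.89 ± 0.20). Genes of fatty acid oxidation did not shift together, with 3 of 22 higher and 3 lower and a median of 0.02.

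Type 1 cell genes were lower. Of 12 markers 10 were lower and 0 higher (median log2 fold change -0.30), and the summed level was 6330 to 7490 CPM in silica rats and 8380 to 8950 CPM in air rats. Rtkn2, a marker of type 1 cells, stood at 354, 346, 340.5, 294 and 356 CPM with silica and 484, 451, 494 and 440.0 CPM in air. Cav1 and Cav2, which build the caveolae of type 1 cells and endothelium, had log2 fold changes of -0.33 ± 0.06 and -0.44 ± 0.08, and the growth factor Vegfa -0.29 ± 0.06. The falls were small beside the rises of the type 2 genes, but the groups did not overlap for Rtkn2, Cav1 or Cav2. Genes of the injured, transitional epithelium seen between type 2 and type 1 cells had a median log2 fold change of -0.10. Of 14 tested, only the urokinase receptor gene Plaur (0.95 ± 0.19) kept its call in all 9 fits that left out 1 rat.

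Tuft cells, rare chemosensory cells of the airway lining, had several marker genes at lower levels. Of 9 tested basal and tuft markers 4 were lower and 1 higher. Trpm5, the cation channel of taste-like signalling, stood at 13.1, 14.8, 13.5, 8.86 and 12.4 CPM with silica and 19.3, 17.1, 21.6 and 21.1 CPM in air. The tuft markers Avil and Sh2d7 stood at 11.4, 12.7, 9.77, 7.86 and 9.25 CPM and 5.14, 4.54, 3.96, 2.51 and 4.83 CPM in silica rats, against 16.2, 14.5, 15.4 and 17.4 CPM and 7.34, 6.54, 7.73 and 8.35 CPM in air rats. For all 3 genes every silica rat lay below every air rat, with log2 fold changes of -0.64 ± 0.12, -0.63 ± 0.14 and -0.82 ± 0.19. The fall of Gnat3, a taste G protein, rested on few counts and was lost without any of 7 of the 9 rats (adjusted p 0.059 to 0.096). Pou2f3, the transcription factor that specifies tuft cells, had an uncalled -0.87 ± 0.33 (adjusted p 0.074) and was called without air rat 41 or silica rat 47. Dclk1, a kinase used as a tuft marker, stood at 24.8, 19.4, 24.4, 25.4 and 19.6 CPM with silica and 25.5, 18.7, 23.2 and 25.1 CPM in air, with overlapping groups (-0.02 ± 0.12, adjusted p 0.92). Both were looked up as the tuft markers of the list that were not called. Alox5ap, the member that was higher (0.68 ± 0.14), is also a leukocyte gene. Krt5, Krt14 and Tp63, which define basal cells, had too few counts to test.

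Other airway cells gave no such set. Ciliated cell markers were lower in 1 and higher in 0 of 15, with a median of -0.48 that came with wide differences between rats: the median of the list per rat lay -0.84 to 0.20 log2 units from the air mean in silica rats and -0.43 to 0.51 in air rats. Without silica rat 43, 5 members were lower. Of 13 club and secretory cell markers only Cldn10, which encodes a tight junction protein, kept its call in all 9 fits that left out 1 rat, at 22.9, 27.2, 32.3, 27.9 and 24.0 CPM with silica and 9.66, 10.1, 10.99 and 10.6 CPM in air. Scgb1a1, the main club cell secretion, was not called, at 2324, 2173, 1515, 1540 and 1904 CPM with silica and 2283, 1972, 3310 and 2859 CPM in air (adjusted p 0.082). How much airway each piece of lung held was not measured, and its part in these values was not tested.

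**Figure D4:**
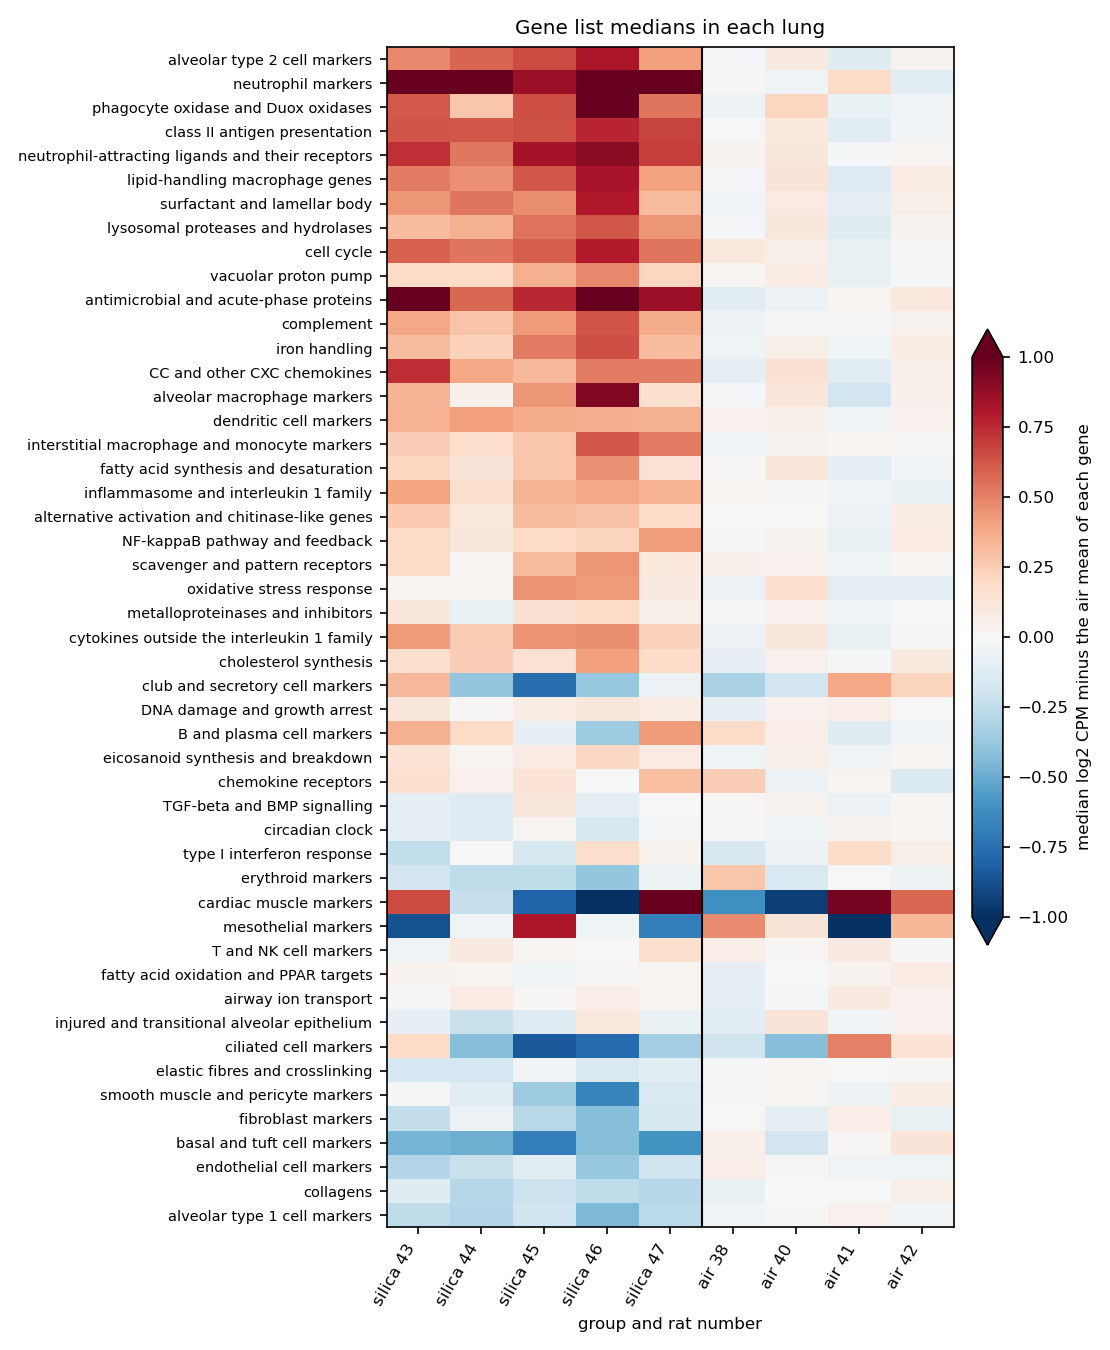
Each cell is the median over a list's tested members of log2 CPM in 1 rat minus the gene's mean in air rats, with the 5 silica rats left of the line and the 4 air rats right of it. The upper rows are red in all 5 silica rats, whereas cardiac, mesothelial and ciliated markers vary from rat to rat within both groups.

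Endothelial markers were lower in 13 and higher in 0 of 22 (median -0.25), with a summed level of 7340 to 9020 CPM in silica rats and 9270 to 9730 CPM in air rats. The angiopoietin receptor Tek stood at 742, 734, 708, 669 and 753 CPM with silica and 892, 891, 923 and 1008 CPM in air, and Pecam1, a junction protein of all endothelium, had a log2 fold change of -0.23 ± 0.05. Lyve1, which marks lymphatic vessels, had -0.38 ± 0.10. The count depended on single rats, with 8 lower without air rat 38, air rat 41 or silica rat 46, and it was 6 in a fit of all 8 groups of the series.

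No tested collagen gene was called higher at 3 months. Col1a2 had too few counts to test, and Col15a1 was at 0 in every silica and air rat. Of 18 tested chains 0 were higher (1 without silica rat 44) and 11 lower (7 without air rat 42), with a median of -0.23, and the summed level was 5930 to 6770 CPM in silica rats and 6820 to 7660 CPM in air rats. Col1a1, a chain of the main scar collagen, stood at 78.3, 99.96, 107, 96.7 and 71.8 CPM with silica and 91.8, 74.2, 84.0 and 86.9 CPM in air, with overlapping groups (log2 fold change 0.11 ± 0.14, adjusted p 0.62). The falls lay in other types: Col13a1, a membrane collagen, stood at 175, 173, 155, 144 and 152 CPM with silica and 213, 224, 220.1 and 233 CPM in air, Col5a2 had -0.39 ± 0.05, and Col4a3, a basement membrane chain of the alveolus, -0.41 ± 0.08. Periostin (Postn), a matrix protein of scars, was lower too (-0.23 ± 0.05), as was the fibulin Efemp1 (-0.46 ± 0.10). Fibroblast markers were lower in 2 and higher in 0 of 12, and in at most 1 of 12 without any 1 of the rats except silica rat 44.

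Calls among regulators of matrix were few and did not all go 1 way. Of 30 tested genes of TGF-beta and BMP signalling 5 were higher and 3 lower (3 higher without air rat 40, 5 lower without silica rat 45). In all, 26.7% of this list was called, against 16.8% of all tested genes, and its median log2 fold change was -0.09. The receptor Tgfbr1 stood at 115.2, 116.6, 107, 139.8 and 117.4 CPM with silica and 82.9, 80.3, 71.8 and 96.1 CPM in air. Bmp4, a growth factor of lung epithelium and vessels, had a log2 fold change of 0.44 ± 0.08, and the receptor Bmpr2 -0.32 ± 0.07. Itgb8, an integrin chain that releases active TGF-beta from its latent form, was chosen after its values were seen and stood at 78.6, 88.5, 77.8, 110.5 and 79.5 CPM with silica and 29.0, 28.5, 25.1 and 29.8 CPM in air (log2 fold change 1.63 ± 0.10). Of 22 metalloproteinases and inhibitors 6 were higher (4 without air rat 41) and 0 lower (1 without silica rat 43). Besides Mmp12, they included Mmp14, a membrane collagenase (0.59 ± 0.09), and Mmp8, the neutrophil collagenase (0.90 ± 0.19). Timp1, an inhibitor often raised in fibrosis, was not called (0.12 ± 0.09).

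Proliferation genes were higher. Of 26 cell cycle genes 17 were higher and 0 lower (11 without air rat 41), with a median of 0.66. Mki67, present in dividing cells, stood at 63.5, 53.4, 55.5, 69.6 and 60.8 CPM with silica and 28.8, 34.2, 30.2 and 32.2 CPM in air, and Top2a, which untangles chromosomes, at 31.5, 32.2, 34.4, 35.3 and 28.3 CPM with silica and 21.1, 20.1, 19.6 and 19.4 CPM in air. Mcm5, a subunit of the replication helicase, had a log2 fold change of 1.14 ± 0.16. The hepatocyte growth factor receptor Met, which lung epithelium carries, was picked after its values were seen: 360.0, 399.8, 400.3, 418 and 343 CPM with silica and 192, 184, 181 and 190.0 CPM in air. Its ligand gene Hgf, looked up for that reason, was lower (-0.34 ± 0.08). Of 20 genes of DNA damage and growth arrest 4 were higher and 1 lower, with a median of 0.08. Without air rat 41, 2 were higher and 0 lower, and 0 were lower without silica rat 45 or 46 or air rat 40 or 42. Among 17 clock genes the repressor Bhlhe41 (0.93 ± 0.16) and Ciart (-0.49 ± 0.11) kept their calls in all 9 fits that left out 1 rat.

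Several of the largest changes belonged to no list. Fstl4, a secreted follistatin-like protein, stood at 8.26, 9.07, 13.9, 11.9 and 11.3 CPM in silica rats and 0, 0.467, 0.859 and 1.70 CPM in air rats. Tmem45b, a membrane protein, had 8.89, 11.1, 10.3, 8.19 and 6.63 CPM with silica and 0.966, 0.156, 1.72 and 1.02 CPM in air, and C2cd4b, a nuclear protein induced by inflammation in endothelium, 9.04, 10.2, 21.0, 11.7 and 11.6 CPM with silica and 2.12, 1.56, 1.20 and 0.682 CPM in air. All 3 were near the limit of detection in air and clearly present in each silica rat. Among the falls, Tesc, a calcium-binding regulator of proton exchange, had 2.18, 3.71, 3.22, 1.67 and 2.90 CPM with silica and 7.92, 7.63, 6.70 and 7.67 CPM in air. Sytl5, which takes part in vesicle transport, had a log2 fold change of -1.62 ± 0.26, and the tight junction gene Cldn8 -1.10 ± 0.20.

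The largest falls among called genes were at 2 neighbouring imprinted genes. Dlk1, a Notch-like growth regulator, had 2 counts over the 5 silica rats, while the 4 air rats stood at 6.37, 5.14, 5.49 and 4.94 CPM, so its summed level in CPM was 95.4 times lower with silica than in air (95% counting interval 25.9 to 796). RGD1566401, which RefSeq lists as a synonym of the long non-coding RNA gene Meg3, was looked up for its place. On GRCr8 it lies on chromosome 6 with 1 annotated gene between it and Dlk1. It stood at 0.156, 0.412, 0, 0 and 0.138 CPM with silica and 3.86, 4.20, 6.87 and 2.22 CPM in air, that is 5 counts over all silica rats and 100 over all air rats. Both genes were seen in every air rat, while Dlk1 was at 0 in 3 and RGD1566401 in 2 of the 5 silica rats. Counting intervals cover counting error only.

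Some of the most abundant transcripts rose and others fell. Lyz2, the lysozyme of macrophages and type 2 cells, whose reads may be shared with a close copy, stood at 16940, 15760, 17690, 21050 and 16430 CPM with silica and 8709, 10910, 8312 and 9780 CPM in air. The giant scaffold gene Ahnak stood at 10390, 9321, 8954, 9083 and 9251 CPM with silica and 10930, 11810, 11770 and 12100 CPM in air, below in every rat. Rises among called genes varied most between silica rats in genes that were highest in rat 46, such as Mab21l3 (5.61, 2.89, 3.83, 10.5 and 2.90 CPM with silica and 0.966, 0.934, 1.03 and 0.682 CPM in air).

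The same contrast in rats on the high-fat diet, which drew on other rats and other air controls, gave no gene with a different silica effect: 0% of tested genes were called for the difference by edgeR's quasi-likelihood test, with 990 at an unadjusted p below 0.05, 1 called by DESeq2 and 0 by limma voom. Genes called on the regular diet had the same sign on the high-fat diet in 96.6% of cases, against 68.3% of genes not called. Of those at least 2-fold changed, 99.2% had the same sign. Cxcl6 had log2 fold changes of 4.09 on the regular diet and 4.70 on the high-fat diet, Noxo1 2.57 and 2.92, and RGD1566401 -4.73 and -4.72. Some lists differed more in their medians: neutrophil markers had a median log2 fold change of 1.14 on the regular diet and 0.34 on the high-fat diet, and the neutrophil-attracting ligands and receptors 0.74 and 0.40, with 0 members of either list called for the difference. Mmp12 was the gene with the smallest p among those with the smaller effect on the regular diet, 3.11 against 4.48 on the high-fat diet (adjusted p of the difference 0.49). A p that misses the threshold does not show that the diets act alike.

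**Figure D5:**
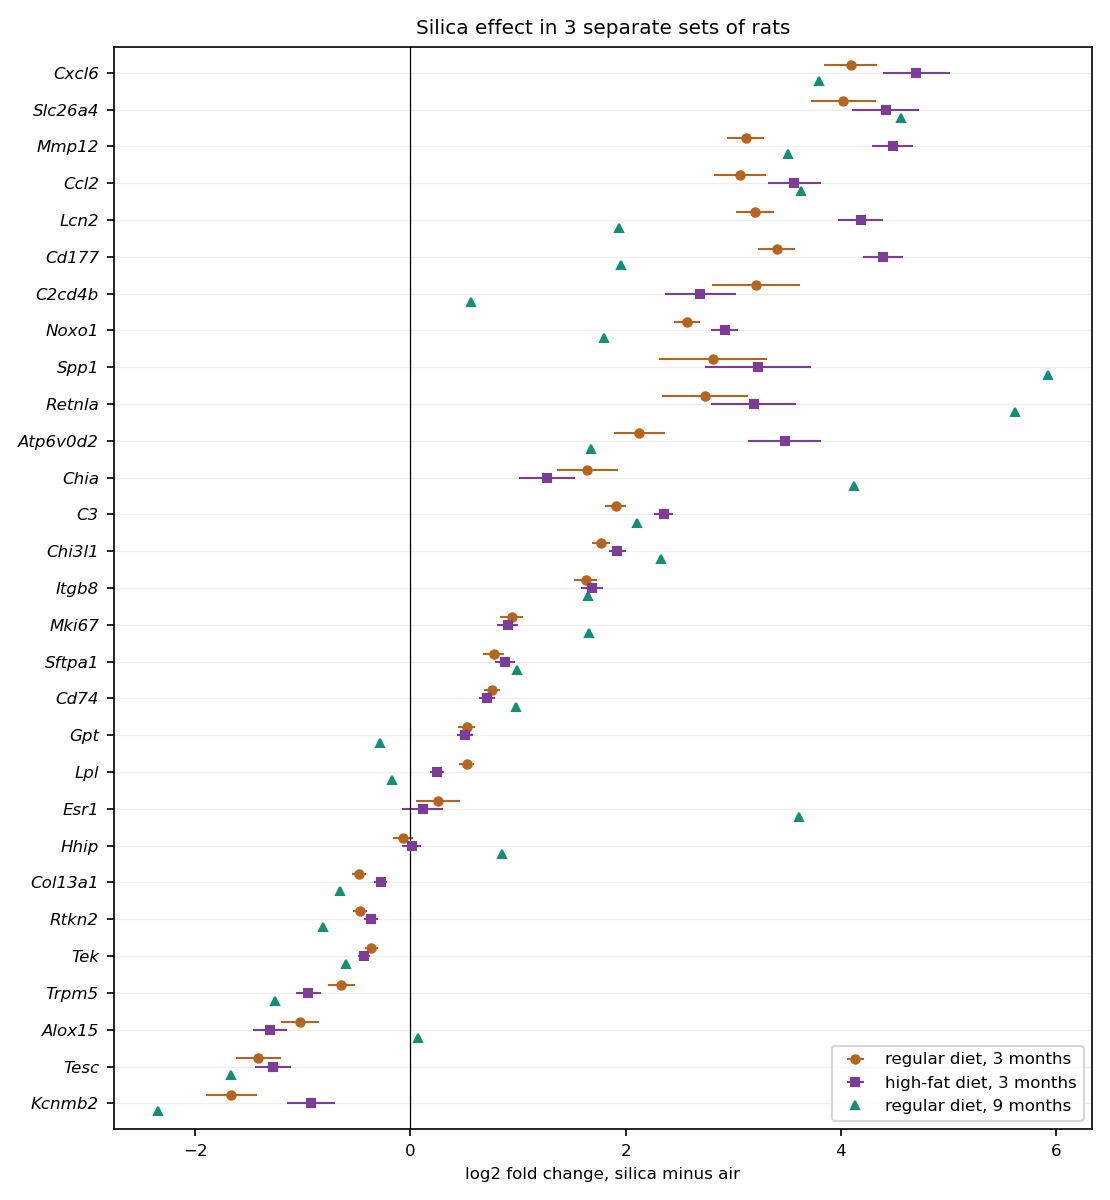
Log2 fold change, silica minus air, of 29 genes on the regular diet at 3 months (circles), on the high-fat diet at 3 months (squares) and on the regular diet at 9 months (triangles). Bars are standard errors for the 3-month values. Cxcl6 and Noxo1 are raised on both diets, while Spp1, Retnla, Chia and Esr1 lie further right at 9 months.

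Against the regular-diet rats sampled 9 months after exposure, 6.78% of 15759 genes tested had a different silica effect by edgeR's quasi-likelihood test. The effect at 3 months was the more positive for 484 of them and the more negative for 584. The count of 1068 was 667 without air rat 42 and 284 when each rat's share of ribosomal RNA entered the fit. Of genes called at 3 months, 95.5% had the same sign at 9 months, against 70.2% of genes not called. Time, table and the rats' age cannot be told apart in this contrast.

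Some effects were more positive at 3 months. Gpt, an aminotransferase, had a log2 fold change of 0.52 at 3 months and -0.28 at 9 months (adjusted p of the difference 5.4e-06). Kifc2, a kinesin, had 0.65 and -0.25 (2.6e-05), and Lpl, the lipase that releases fatty acids from lipoproteins, 0.52 and -0.17 (5.1e-05). At 3 months Lpl stood at 633, 671, 729.8, 754 and 621 CPM with silica and 459, 465, 447 and 526 CPM in air. C2cd4b had 3.22 and 0.57 (0.0017), and the neutrophil gene Cd177 3.40 and 1.95 (2.4e-04).

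Others were larger at 9 months. Esr1, the oestrogen receptor, had an uncalled 0.25 at 3 months and 3.61 at 9 months (1.4e-09), at 7.17, 5.22, 8.78, 9.53 and 5.80 CPM with silica and 4.64, 4.98, 7.04 and 7.67 CPM in air at 3 months. Hhip, a hedgehog inhibitor of lung mesenchyme, had -0.07 and 0.86 (2.5e-06), and Tmtc1 0.29 and 1.11 (2.5e-06). 3 genes that macrophages can make were raised at both times but less at 3 months: Chia 1.64 against 4.13 (4.9e-05), Retnla 2.74 against 5.62 (6.2e-04) and Itgam 0.77 against 1.92 (2.8e-04). Mki67 followed them, with 0.94 against 1.66 (0.004). The type 1 and caveolar gene Cav2 had fallen less at 3 months, -0.44 against -1.02 (0.0014). For C3, Pigr and Itgb8 the log2 fold changes were 1.91, 0.98 and 1.63 at 3 months and 2.10, 1.11 and 1.65 at 9 months, with adjusted p of the difference of 0.51, 0.56 and 0.97.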

How the data were processed

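RNA sequencing of whole lung was analysed for 9 rats on the regular diet at 3 months (5 silica, 4 air). The authors deposited 1 table of raw counts per gene symbol and rat for each time point, holding 30045 symbols, and the counts were used as deposited. Libraries were stranded total RNA with ribosomal RNA removed, per the labels' protocols. The submitters' processing notes name Trimmomatic 0.35, bcl2fastq 2.19, HTSeq 0.6.1, SAMtools 0.1.19, Bowtie2 2.2.9 and TopHat2 2.0.9 with the build Rnor_6.0. The strand setting of the counting and the annotation are not given in the sources used here, so counts of overlapping genes and close copies are uncertain.

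Genes were kept by filterByExpr of edgeR 4.0.16 (R 4.3.3), which left 15234, and scaled by TMM. Quasi-likelihood models had 1 coefficient per group, with the 19 rats of 3 months in 1 fit and all 42 rats in the fit for time. A gene was called at a Benjamini-Hochberg adjusted p below 0.05 over all tested genes. CPM are edgeR's scaled counts on the TMM library sizes, and counting intervals are exact at 95%. The ± in log2 fold changes is a standard error derived from the quasi-likelihood test. It is the absolute log2 fold change over the square root of the test's F statistic. No rat tag occurs in more than 1 group, so rats were not paired. Total counts of 5143424 to 8259635 per rat limit precision for genes of a few CPM. The tests were tried on simulated counts.

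Genes and the 53 lists were chosen with earlier results of these data known, and lists are described by counts and medians, with no test. Some genes belong to more than 1 list, so counts of different lists are not independent. Named genes are the 14 called genes that rose most and the 14 that fell most by log2 fold change, the 5 members of each list with the smallest p, the 10 most abundant, the 6 most variable among silica rats, the 4 with the smallest p in each direction of each difference, and a fixed panel of 29. Those chosen after their values were seen are marked, and those named only for their low counts, for a promoter match or as the odd member of a list were also chosen then. Not every gene under the rule is described, and some results are not reported here. Alternatives were RLE size factors, no filter, DESeq2 1.42.0, limma 3.58.1 voom, the other edgeR setting, the ribosomal RNA share as a covariate, other sets of rats in the fit, and leaving out each rat. Promoters are 300 bases around each start site from RefSeq on GRCr8, a later build than that of the counts.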

Additional observations from a re-analysis of the deposited data

Results flagged for a closer look

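Single rats stood apart from the rest of their group for 16 gene levels and 1 library measure, out of 304 groups of rats checked. Each was checked by its gap to the next rat, and chance alone gives about 1 in 20 groups. The total of 17 flags is near that share, so single flags may be chance. Among silica rats, rat 46 was the highest for Ccl3 (38.5 CPM), Ccl7 (12.0 CPM), Cfi (85.0 CPM), Cxcl10 (5.68 CPM), Il1rn (54.5 CPM), Isg20 (23.6 CPM), Retnla (135.9 CPM), Slc26a4 (187.5 CPM) and Sod2 (405 CPM). It was the lowest for the type 1 cell gene Rtkn2 (294 CPM) and had the fewest genes detected (18797). Silica rat 43 was the highest for Ahnak (10390 CPM) and silica rat 45 for C2cd4b (21.0 CPM). Among air rats, rat 38 was the highest for Il1b (25.3 CPM) and the lowest for Itgam (31.9 CPM) and rat 42 the highest for Pigr (1415 CPM) and Spp1 (3.41 CPM).

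The silica effect differed between 3 and 9 months on the regular diet for 38 of the 149 named genes tested. Calls are by the edgeR interaction term at an adjusted p below 0.05 over all genes. Over all genes tested for this difference the share called was 6.78%. Some genes were named for their small p in this same contrast, so the count of 38 cannot be set against that share. Each value is the log2 effect at 3 months minus that at 9 months. It was positive for C2cd4b (2.65), Cd177 (1.45), Lcn2 (1.27), Sh2d7 (1.03), Kifc2 (0.89), Gpt (0.81), Noxo1 (0.77), Lpl (0.70), Efemp1 (0.63), Trpm5 (0.62), Cav2 (0.58), Ccl6 (0.54), Postn (0.48), Cav1 (0.46), Cxcl3 (0.44), Il33 (0.42), Rtkn2 (0.35) and Ahnak (0.28). It was negative for Esr1 (-3.35), Spp1 (-3.10), Retnla (-2.87), Chia (-2.48), Cfi (-1.48), Itgam (-1.15), Hhip (-0.92), Tmtc1 (-0.81), Mki67 (-0.71), Hmox1 (-0.69), Muc1 (-0.67), Tnfaip2 (-0.59), Csf1 (-0.58), Chi3l1 (-0.56), Cfb (-0.55), Top2a (-0.53), Ifi30 (-0.45), Tgfbr1 (-0.41), Mmp14 (-0.39) and Ctsb (-0.37). For 16 of these genes the call held in every fit without 1 rat and under every other setting, namely C2cd4b, Cd177, Kifc2, Gpt, Lpl, Cav2, Postn, Cav1, Esr1, Retnla, Chia, Itgam, Hhip, Tmtc1, Mki67 and Cfb. Lcn2, Ccl6 and Muc1 kept it without any 1 rat but lost it when the share of ribosomal RNA entered the fit. The other 19 lost it in at least 1 fit without a rat, and 20 of the 38 lost it under at least 1 other setting. Among fits without a rat, Chi3l1 and Spp1 lost it only without air rat 42 of 3 months, and both also lost it when the share of ribosomal RNA entered the fit (adjusted p 0.113 and 0.0839). Csf1 lost it only without air rat 40 of 3 months, and Noxo1 in 12 such fits.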

How the results depend on the processing

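The count of genes called between silica and air was 2561, between 2038 and 2900 under the other settings, and between 1728 and 3092 when 1 rat was left out. Genes called higher numbered 1110 to 1815 and genes called at least 2-fold 196 to 265 when 1 rat was left out. Genes called lower numbered 618 (without air rat 41) to 1277. Leaving out a rat also leaves fewer samples, and why these rats matter most was not tested. For the difference between the diets the count was 1 with DESeq2 and 0 under the other settings and without any 1 rat. For the difference between 3 and 9 months it was 284 when the share of ribosomal RNA entered the fit and 667 to 1338 when 1 rat was left out, 667 without air rat 42 of 3 months. The cause was not tested. Of the named genes called, 4 lost the call in at least 1 fit without a rat and 2 under at least 1 other setting, and 0 changed direction in these fits. The uncalled log2 fold change of Dclk1 lay between -0.117 and 0.0275 when 1 rat was left out. No paired analysis was possible because no rat number occurs in more than 1 group. Genes of a few CPM rest on few counts per rat, so smaller changes in them were not detectable at this depth.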
